A study of Drosophila melanogaster with 20 samples.

Results

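DNA replication genes that license origins, run the fork or supply its nucleotides made up 39 of the 17807 genes counted in embryos of *Drosophila melanogaster*. They were chosen from listed functions at the origin, at the fork and in nucleotide supply, all of which work with the kinase of Cdc7 and Chiffon. They comprise the Cdc7 kinase, 6 subunits of the origin recognition complex (ORC), 3 licensing factors, 6 MCM subunits, Mcm10 and Cdc45, 4 GINS subunits, PCNA, 2 subunits of ribonucleotide reductase, 4 clamp loader genes, Fen1, 4 subunits of DNA polymerase alpha-primase, the catalytic subunits of polymerases epsilon and delta, Top2 and 2 subunits of CAF-1. Of the 39 genes, 38 passed the filter on low counts. The exception, *lat* (also named *Orc3*), had 0 counts in all 20 libraries. *CG34315* overlaps 100% of its exon bases on the same strand in the annotation, and such reads are not counted for either gene, so this 0 says nothing about the level of its RNA.

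The RNA-seq experiment compared 5 genotypes with 4 libraries each, and every library was made from a pool of 6 embryos at stage 12 to 14. *Ada2b* null embryos (null) carried the alleles *Ada2b*1 and *Ada2b*842 in trans and lacked both splice isoforms of Ada2b, a subunit that the histone acetyltransferase Gcn5 needs to acetylate nucleosomes. In the same null background, *Ada2b*+Ada2b-PA embryos (PA) carried 1 transgene for the isoform found in the Chiffon complex CHAT, *Ada2b*+Ada2b-PB embryos (PB) carried 1 for the isoform found in SAGA and ADA, and PA+PB embryos carried both transgenes, each under the regulatory sequences of *Ada2b* itself. WT embryos carried no *Ada2b* null allele and no *Ada2b* transgene. All 5 genotypes carried the neuronal driver *elav-Gal4* with *UAS-GFP*, which served to pick embryos of the right genotype under the microscope. The 4 PA+PB and 4 WT libraries were used as controls, and the label of WT replicate 3 gives stage 12 to 15.

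Replication begins in G1, when ORC, Cdc6 and Cdt1 (*dup*, double parked, in flies) load the MCM helicase on DNA, and geminin blocks Cdt1 outside G1. The DDK kinase, made of Cdc7 and its activating partner Chiffon, then phosphorylates MCM, so that Cdc45 and GINS can join and the helicase unwinds the origin. *Drosophila* eggs are loaded with maternal RNA of these genes, and at the stages sampled here most epidermal cells have stopped dividing while neural precursors still cycle and some larval tissues enter endocycles. The gene *chif* encodes separate polypeptides, one of which activates Cdc7 while another is the Chiffon subunit of CHAT. By staining, the paper found the Cdc7-binding product in early embryos but did not detect it at later stages, where the CHAT subunit persisted. Counts of *chif* RNA do not separate these polypeptides.

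Libraries held between 1656080 and 35367055 counts on genes other than rRNA genes, and 3 counts correspond to between 0.0848 and 1.81 CPM, the count scaled to library size. Levels are CPM on library sizes scaled by TMM. PA libraries had 2508357 to 10522137 counts and PB libraries 1656080 to 33008038, the highest of these in PB replicate 4. Of the 10904 genes tested, 2.57% to 3.88% had 0 counts in a null library, against 21.7% to 51.2% in a PA, 11.7% to 57.0% in a PB, 4.11% to 34.3% in a PA+PB and 2.87% to 12.0% in a WT library. The 38 replication genes followed this pattern. None was at 0 in any null library or in any WT library, whereas 1 to 9 were at 0 in a PA library, 0 to 23 in a PB library and up to 6 in a PA+PB library. The highest numbers came from PB replicates 1 and 3 with 23 and 16 genes, PA replicate 2 with 9 and PA+PB replicate 3 with 6. PB replicate 1 had no count of *Cdc6*, *dup* or *Mcm10*, which reached at least 99.4 CPM in every control library, while 3 counts were 1.81 CPM there.

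**Figure D1:**
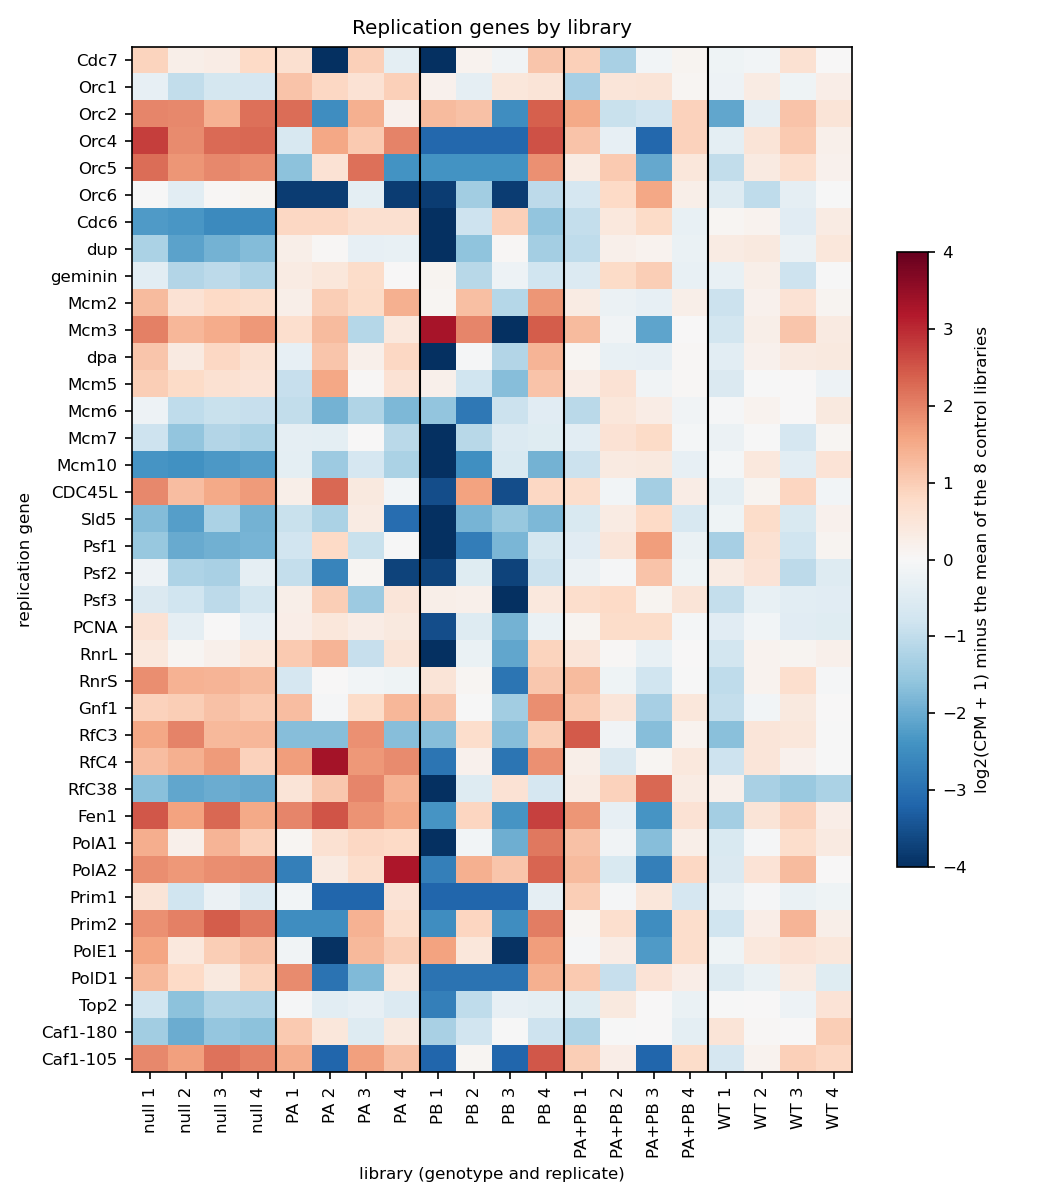
Level of the 38 replication genes in each library. Colour gives log2(CPM + 1) minus the mean of the 8 control libraries (4 PA+PB and 4 WT). The null columns show both colours, with *Cdc6*, *Mcm10*, *RfC38* and *Caf1-180* below the controls and *Orc4*, *RnrS* and *Caf1-105* above them. PB replicate 1 and PB replicate 3 hold the darkest blue cells, many of them genes with 0 counts.

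In null embryos some replication RNAs were lower than in the controls and others were at or above the control level. *Caf1-180* fell against WT, *Top2* fell against both controls, and *Cdc6*, *dup* and *Mcm10* had all 4 null libraries below all 8 control libraries. *Orc4*, *Orc5*, *PolA2*, *Prim2* and *RnrS* lay above all controls without passing the test. A gene was called when edgeR's quasi-likelihood test, with Benjamini-Hochberg adjustment over 10904 genes, gave an FDR below 0.05 for a change of 0.5 or more on the log2 scale. Against WT alone 3 of the 38 genes were called lower (*Mcm10*, *Top2* and *Caf1-180*), beside 4.54% of all genes, and 0 higher, beside 0.0459%. Against PA+PB alone 2 were called lower (*Top2* and *RfC38*), beside 3.27%, and 0 higher, beside 0.11%. In the null against both controls, 1 of the 38 replication genes was called lower, beside 2.7% of all genes, and 0 were called higher, beside 0.0% of all genes. With p under 0.05 before adjustment in each of the 2 contrasts, 7 were lower (*Cdc6*, *dup*, *Mcm7*, *Mcm10*, *Sld5*, *Top2* and *Caf1-180*), beside 9.87% of all genes, and 0 were higher, beside 0.926%. DESeq2's Wald test called 4 lower (*Caf1-180*, *Mcm10*, *Sld5* and *Top2*), beside 5.17% of all genes, and 0 higher, beside 0.578%.

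The libraries themselves divided the genes more evenly. In 9 genes every null library lay below every control library (*Cdc6*, *dup*, *Mcm7*, *Mcm10*, *Sld5*, *Psf1*, *RfC38*, *Top2* and *Caf1-180*), which is 23.7% of the 38, beside 14.0% of all genes. In 9 others every null library lay above every control library (*Orc4*, *Orc5*, *Mcm3*, *Cdc45*, *RnrS*, *RfC4*, *PolA2*, *Prim2* and *Caf1-105*), again 23.7%, beside 10.2% of all genes. With DESeq2's size factors in place of TMM these numbers were 7 and 10, beside 11.4% and 14.3% of all genes, as *Mcm7*, *RfC38* and *RnrS* left these sets and *Mcm2* and *dpa* joined those above. With TMM the division ran through some complexes. The null lay outside the controls in both directions within MCM (*Mcm7* below, *Mcm3* above), the clamp loader (*RfC38* below, *RfC4* above) and CAF-1 (*Caf1-180* below, *Caf1-105* above). Both licensing factors outside the controls were below and both such ORC subunits above. With DESeq2's size factors MCM and the clamp loader were no longer split. CAF-1 still was, but the fitted changes of *Caf1-105* were negative in edgeR's test (-0.47 for WT and -0.19 for PA+PB). Embryos were analysed whole, so fewer cells of a type and less RNA per cell cannot be told apart in any of these values.

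The fits held 1 factor for variation that replicates show among themselves, and this factor moves the whole distribution. It took values of -0.85 to -0.81 in the null libraries, lower than in any other library. In PA+PB it ran from -0.79 to 0.92 and in WT from -0.78 to -0.12. Its highest values were in PB replicate 1 (2.95) and PA replicate 2 (1.97), which had the most tested genes at 0. The factor is thus not independent of genotype. The median log2 fold change of all genes was -0.18 in null minus WT and -0.27 in null minus PA+PB, and 0.40 and 0.49 without the factor. Medians of the 38 replication genes were -0.11 and -0.73 with the factor, and 0.54 and 0.50 without it. The direction of some genes depends on the fit, and these are not only genes that changed little. The null mean CPM of *Caf1-105* was 3.02 times that of WT and 3.33 times that of PA+PB. Its fitted change against WT nevertheless ran from -0.82 to 1.65. Over 10 ways of fitting the counts that kept all libraries of the groups compared, 13 of the 38 genes were lower in the null in both contrasts every time, 15 were higher every time and 10 changed direction at least once. The same was not counted over all genes, so these numbers cannot be read as a trait of the replication genes. *Caf1-105* was among the 10, with fitted fold changes of -0.47 (FDR = 0.95) for WT and -0.19 (FDR = 0.96) for PA+PB in edgeR's test, although its CPM lay above all controls.

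**Figure D2:**
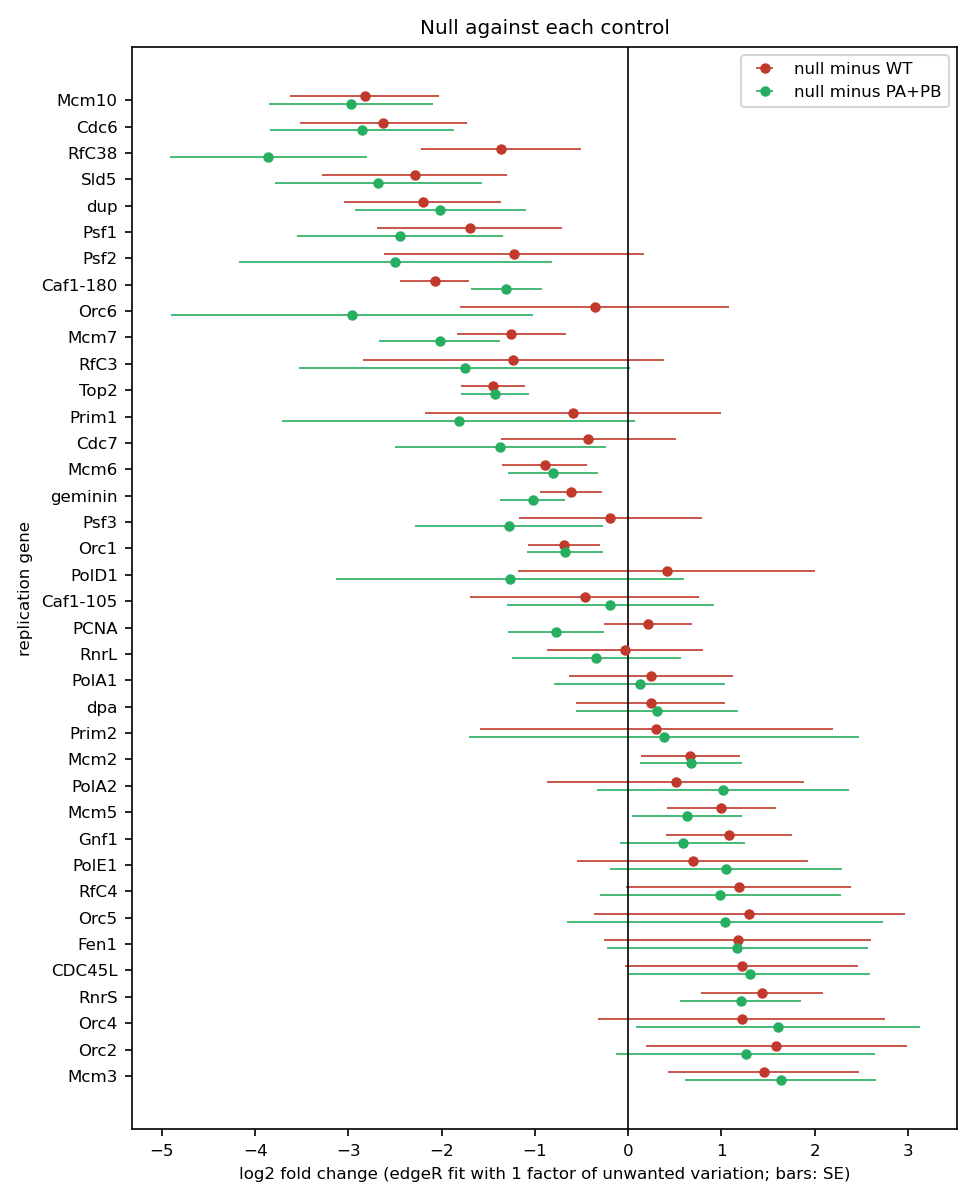
Log2 fold change of each replication gene in null minus WT (red) and null minus PA+PB (green), from the edgeR fit with 1 factor; bars are 1 SE and genes are ordered by the sum of both values. *Mcm10* and *Cdc6* head the lower genes and *Mcm3* stands last among the higher ones; the shortest bars belong to well-counted genes such as *Top2* and *Caf1-180*.

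Cdc7, the catalytic subunit of DDK (chromosome X from 6654541 to 6659709, plus strand; coordinates here and below are those of assembly BDGP6), had null levels that overlapped those of both controls. It reached 36.6, 22.7, 24.0 and 34.5 CPM in the null libraries, 38.7, 7.32, 17.7 and 20.9 in PA+PB, and 17.2, 17.9, 30.3 and 19.4 in WT. The ranges overlapped, and all 4 null values lay within the span of the PA+PB libraries. Fitted log2 fold changes were -0.43 in null minus WT (SE 0.94, FDR = 0.94) and -1.37 in null minus PA+PB (SE 1.13, FDR = 0.61) in edgeR's test, and they were 0.48 and 0.48 without the factor, so that no direction can be given. *Cdc7* had 0 counts in PA replicate 2 and PB replicate 1.

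The gene for the partner of Cdc7, *chif*, encodes Chiffon and is not 1 of the 39 genes. Whether its change differs from that of *Cdc7* was not tested. The level of *chif* was 294, 233, 334 and 321 CPM in the null libraries, 456, 534, 486 and 562 in PA+PB, and 582, 559, 563 and 895 in WT, with no overlap between the null and the controls. Its log2 fold change was -1.21 in null minus WT (SE 0.25, FDR = 0.0077) and -0.90 in null minus PA+PB (SE 0.25, FDR = 0.055) in edgeR's test, which passes in the first contrast alone. Across the 20 libraries, log2 CPM of *chif* and *Cdc7* had a Pearson r of 0.069, while *Caf1-105* (0.70) and *PolD1* (0.66) were the replication genes most like *Cdc7*. Most like it among all other genes were *mgr* (0.98), *su(f)*, *CG10462*, *pigeon* and *CG7627*. These libraries share their depth and their zeros, and the correlations are descriptions only.

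Among the ORC genes, *Orc1*, which encodes the largest subunit and had the most counts of the complex, was lower in the null than in WT with no overlap. Its null libraries had 81.8, 51.3, 62.8 and 63.3 CPM, against 40.5, 145, 147 and 109 in PA+PB and 88.9, 128, 91.4 and 124 in WT. PA+PB replicate 1 fell below all null libraries, and neither contrast passed the test (log2 fold changes -0.69 and -0.67, FDR = 0.48 and 0.42, edgeR). *Orc4* went the other way, with 57.9, 31.7, 41.1 and 42.0 CPM in the null libraries, against 18.3, 5.90, 0 and 15.6 in PA+PB and 5.60, 11.6, 17.2 and 9.11 in WT. Every null library of *Orc4* was above every control library, by means of 43.2 ± 10.9 CPM in the null against 10.9 ± 4.86 in WT (SD, n = 4 each), but the fitted change against WT was 1.22 with an SE of 1.54 (FDR = 0.86, edgeR). *Orc5* had the same order (16.6 to 23.3 CPM in the null, 0.244 to 9.81 in the controls). *Orc2*, with 13.7 to 24.7 CPM in the null libraries against 2.0 to 15.1 in PA+PB and 0.333 to 11.4 in WT, overlapped PA+PB and had fitted changes of 1.59 and 1.26 (FDR = 0.75 and 0.73, edgeR). *Orc6* overlapped both controls.

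Of the 3 licensing factors, *Cdc6* and *dup* lay below all controls in the null. *Cdc6*, an ATPase that works with ORC to load MCM (chromosome 3L from 8631509 to 8634069, minus strand), had 53.3, 51.1, 44.2 and 43.4 CPM in the null libraries, against 133, 347, 441 and 211 in PA+PB and 276, 287, 191 and 330.1 in WT. The null libraries lay within a narrow band, and the lowest control library was well above the highest of them. Means were 48.0 ± 4.94 CPM in the null, 283 ± 137 in PA+PB and 271 ± 58.1 in WT (SD, n = 4 each). The fitted log2 fold changes were -2.63 in null minus WT (SE 0.90, FDR = 0.12) and -2.85 in null minus PA+PB (SE 0.99, FDR = 0.12), which do not pass edgeR's test after adjustment. With PA replicate 2 and PB replicate 1 left out together, a choice made after seeing the data, *Cdc6* passed in both contrasts.

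*dup* (chromosome 2R from 15376619 to 15380988, minus strand) encodes Cdt1, which brings MCM to the origin. Its null libraries had 228, 122, 147 and 162 CPM, against 269, 624, 608 and 454 in PA+PB and 691, 719, 464 and 751 in WT. No null library reached a control library, though null replicate 1 came close to PA+PB replicate 1. Fitted changes were -2.21 (SE 0.84, FDR = 0.18) and -2.01 (SE 0.92, FDR = 0.26) in edgeR's test. Geminin, the inhibitor of Cdt1, had 395, 232, 253 and 224 CPM in the null libraries, against 363, 903, 1031 and 426 in PA+PB and 424, 615, 294 and 522 in WT. These ranges overlapped, and the changes of -0.61 (FDR = 0.45, null minus WT) and -1.02 (FDR = 0.12, null minus PA+PB) did not pass.

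MCM subunits form a ring of 6 proteins that serves as the fork's helicase, and 0 of the 6 genes passed the test in either null contrast. *Mcm7* had 188, 111, 149.7 and 138 CPM in the null libraries, against 252, 498, 573 and 316 in PA+PB and 287, 329.8, 210.3 and 351 in WT. Null libraries were lower throughout, with fitted changes of -1.25 (SE 0.58, FDR = 0.32) and -2.02 (SE 0.65, FDR = 0.093) in edgeR's test. With DESeq2's size factors in place of TMM the *Mcm7* libraries overlapped the controls. An antisense RNA overlaps 81.7% of the exon bases of *Mcm7*, and whether the reads keep their strand is not given in the sources used here, so the values of *Mcm7* are uncertain. *Mcm3* had 108, 66.1, 74.1 and 88.5 CPM in the null libraries, against 63.3, 23.5, 5.25 and 25.9 in PA+PB and 15.2, 30.4, 56.9 and 33.4 in WT. Here every null library was higher than every control library, while the fitted changes of 1.45 and 1.64 did not pass (SE 1.02 and 1.03, FDR = 0.64 and 0.45, edgeR). *Mcm2* (66.1 to 107 CPM in the null, 35.4 to 56.2 in PA+PB, 23.9 to 66.6 in WT) and *Mcm5* (75.8 to 103 CPM in the null, 46.8 to 77.1 in PA+PB, 33.7 to 52.1 in WT) overlapped the controls only at the edge. Their fitted changes were 0.67 and 0.68 for *Mcm2* (FDR = 0.71 and 0.60) and 1.0 and 0.63 for *Mcm5* (FDR = 0.51 and 0.67) in edgeR's test. *dpa*, the fly Mcm4, had positive fitted values and *Mcm6* negative ones under each of the 10 fits, neither of them called.

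*Mcm10* and *Cdc45*, which act when the loaded helicase fires, lay on opposite sides of the controls. *Mcm10* (chromosome 2L from 21179933 to 21182812, plus strand) had 33.9, 32.9, 35.6 and 38 CPM in the null libraries, against 99.4, 232, 233 and 142 in PA+PB and 169, 239, 135 and 260.5 in WT. The 4 null libraries were nearly equal and all far below the controls. *Mcm10* fell against WT by 2.83 on the log2 scale (SE 0.80, FDR = 0.047) and missed the limit against PA+PB at -2.97 (SE 0.88, FDR = 0.068), both by edgeR's test. The call against WT was lost when any 1 null library was left out, with DESeq2's size factors, with no filter on low counts and without the factor, with FDR up to 0.15, and the fold change stayed between -3.09 and -2.17. *Ret* overlaps 13% of the exon bases of *Mcm10* on the other strand. *Cdc45* (*CDC45L* in older annotations) had 43.2, 26.4, 32.5 and 36.7 CPM in the null libraries, against 17.9, 9.89, 3.54 and 13.4 in PA+PB and 7.80, 11.6, 19.9 and 9.72 in WT, all null libraries above all controls. Its fitted changes were 1.22 (SE 1.25, FDR = 0.81) and 1.30 (SE 1.29, FDR = 0.69).

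GINS genes, whose products complete the active helicase with MCM and Cdc45, were poorly counted. *Sld5* had 8.06, 5.46, 11.3 and 6.97 CPM in the null libraries, against 18.7, 36.4, 50.7 and 18.2 in PA+PB and 25.7, 48.3, 18.5 and 32.5 in WT. *Psf1* had 11.2, 7.76, 8.22 and 8.77 CPM in the null libraries, against 24.6, 47.7, 111 and 28.1 in PA+PB and 12.9, 52.1, 19.1 and 37.2 in WT. Both lay below all controls in the null, although *Psf1* in WT replicate 1 barely exceeded the highest null library. Fitted changes were -2.29 and -2.68 for *Sld5* (SE 0.99 and 1.11, FDR = 0.27 and 0.21) and -1.70 and -2.44 for *Psf1* (SE 0.99 and 1.10, FDR = 0.50 and 0.26) in edgeR's test. *Psf2* and *Psf3* overlapped WT, and *CG17841* covers 34.9% of the exon bases of *Psf3* on the other strand.

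At the fork itself, PCNA, the sliding clamp, had 169, 87.8, 114 and 89.4 CPM in the null libraries, against 123, 189, 188 and 108 in PA+PB and 82.3, 106, 83.4 and 80.4 in WT. The null overlapped both controls, with fitted changes of 0.21 (FDR = 0.94, null minus WT) and -0.78 (FDR = 0.48, null minus PA+PB, edgeR). Of the clamp loader genes, *Gnf1*, the large subunit, had 52.0, 54.3, 61.1 and 56.7 CPM in the null libraries, against 55.8, 37.5, 10.1 and 37.3 in PA+PB and 13.3, 24.6, 35.4 and 26.9 in WT. It exceeded all WT libraries and overlapped PA+PB replicate 1, and its changes of 1.08 and 0.59 did not pass (FDR = 0.55 and 0.75, edgeR). *RfC38* had 13.4, 9.88, 10.5 and 10.1 CPM in the null libraries, against 55.6, 85.9, 221 and 56.6 in PA+PB and 51.1, 17.6, 15.2 and 17.8 in WT. It fell against PA+PB (-3.86, SE 1.06, FDR = 0.048) and not against WT (-1.36, SE 0.86, FDR = 0.56). All 4 PA+PB libraries of *RfC38* were above all 4 WT libraries, so that the distance from the null depended on the control, and *Nup160* overlaps 25.2% of its exon bases on the other strand.

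Ribonucleotide reductase makes the deoxynucleotides that replication uses. Its small subunit, *RnrS* (chromosome 2R from 11983145 to 11985393, minus strand), had 179, 129.8, 127 and 117 CPM in the null libraries, against 117, 43.2, 27.2 and 47.9 in PA+PB and 23.3, 53.8, 77.1 and 46.7 in WT. Every null library was above every control library, if only just over PA+PB replicate 1. With log2 fold changes of 1.44 in null minus WT (SE 0.65, FDR = 0.31) and 1.21 in null minus PA+PB (SE 0.65, FDR = 0.36), *RnrS* had the smallest p of the genes higher in the null and still did not pass edgeR's test. *RnrL*, the large subunit, overlapped both controls.

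DNA polymerase alpha-primase starts each new strand, and 0 of its 4 genes passed the test in either null contrast. *PolA1*, the catalytic subunit, had 76.2, 31.3, 70.7 and 53.4 CPM in the null libraries, against 62.5, 24.6, 7.57 and 32.2 in PA+PB and 17.2, 25.8, 44.9 and 34.7 in WT, with overlap and fitted changes of 0.25 and 0.12 (FDR = 0.96 and 0.97, edgeR). *PolA2* (21.2 to 23.9 CPM in the null, 0 to 15.1 in the controls) and *Prim2* (19.2 to 29.3 CPM in the null, 0 to 13.6 in the controls) lay above all controls, and *Prim1* overlapped them. *Fen1*, which trims Okazaki fragments, *PolE1* and *PolD1* overlapped at least 1 control group.

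*Top2*, the topoisomerase that separates replicated strands, was the 1 gene called against both controls (chromosome 2L from 19447365 to 19453490, minus strand). It had 664, 367, 493 and 487 CPM in the null libraries, against 811, 1511, 1167 and 954 in PA+PB and 1138, 1155, 1002 and 1659 in WT. Null replicate 1 was the highest of its group and still below the lowest control. *Top2* fell by 1.45 on the log2 scale (SE 0.34, FDR = 0.017) compared with WT and by 1.43 (SE 0.36, FDR = 0.034) compared with PA+PB in the edgeR fit. The double call rests on few libraries. Without any 1 of the 4 null libraries, PA+PB replicate 2, WT replicate 1 or WT replicate 4, *Top2* no longer passed in both contrasts, with FDR up to 0.083 against WT and up to 0.13 against PA+PB, while its fold change stayed between -1.62 and -1.25 and between -1.63 and -1.05.

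*Caf1-180*, the large subunit of the histone chaperone that places new H3 and H4 behind the fork, had the firmest drop against WT (chromosome X from 8602137 to 8606304, minus strand). It had 263, 175, 237 and 222 CPM in the null libraries, against 300.4, 689.6, 705 and 535 in PA+PB and 996, 725, 705 and 1363 in WT. Against WT it fell by 2.07 on the log2 scale (SE 0.37, FDR = 0.0042, edgeR), and it stayed called in this contrast under every alternative fit and with each library left out, with FDR up to 0.028. Against PA+PB it had a change of -1.31 (SE 0.38, FDR = 0.065), and without PA+PB replicate 1, the lowest control, it passed there as well (-1.57). Its partner *Caf1-105* had 33.3, 27.2, 40.3 and 35.7 CPM in the null libraries, against 17.1, 9.89, 0 and 14.0 in PA+PB and 4.67, 8.94, 16.5 and 15.0 in WT, higher in every null library.

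**Figure D3:**
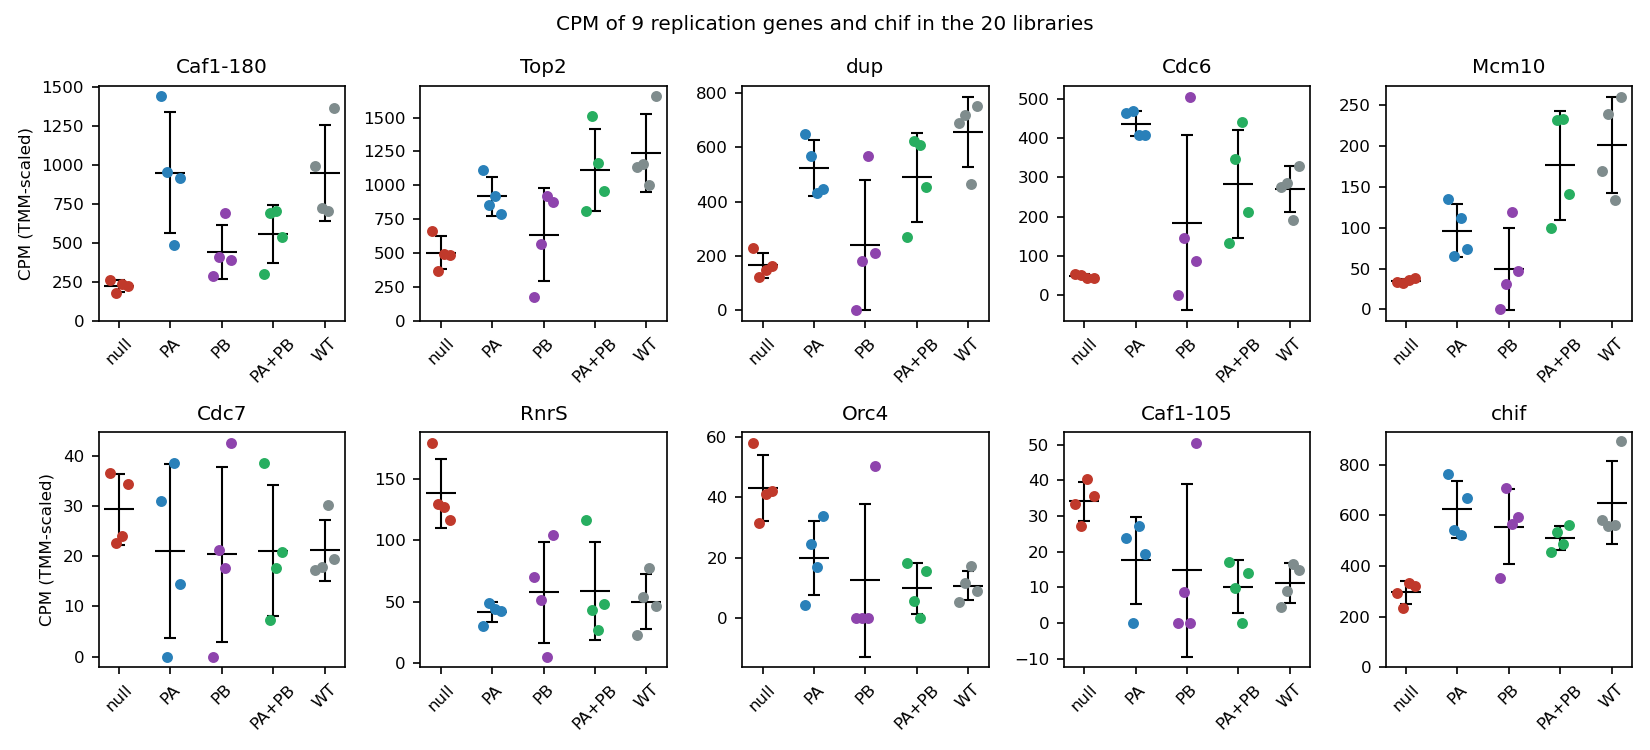
CPM on TMM-scaled library sizes of 9 replication genes and *chif* in each library (points), with the mean and SD of the 4 libraries of a genotype (bars). The null points of *Caf1-180*, *Top2*, *dup*, *Cdc6*, *Mcm10* and *chif* lie below all PA+PB and WT points, those of *RnrS*, *Orc4* and *Caf1-105* above them, and those of *Cdc7* among them. PB replicate 4, the rightmost PB point, is the highest PB library for *Cdc7*, *RnrS*, *Orc4* and *Caf1-105*.

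Genes lower in the null tended to have high levels in the controls. On a log2(CPM + 1) scale, the level in PA+PB and the difference between null and WT, which use separate control libraries, had a Pearson r of -0.78 and a Spearman rho of -0.81 over the 38 replication genes. The level in WT and the difference between null and PA+PB gave -0.60 and -0.62. All 10904 genes showed the same sign to a lesser degree (-0.46 and -0.38 by Pearson), and genes of a library are not independent, so no test is given. On this scale, 15 of 38 genes had a lower mean in the null than in WT and 23 a higher one, against 3775 and 7129 of all genes. Low genes were also the ones with zeros in the sparser control libraries, and the part of this in the result was not tested.

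**Figure D4:**
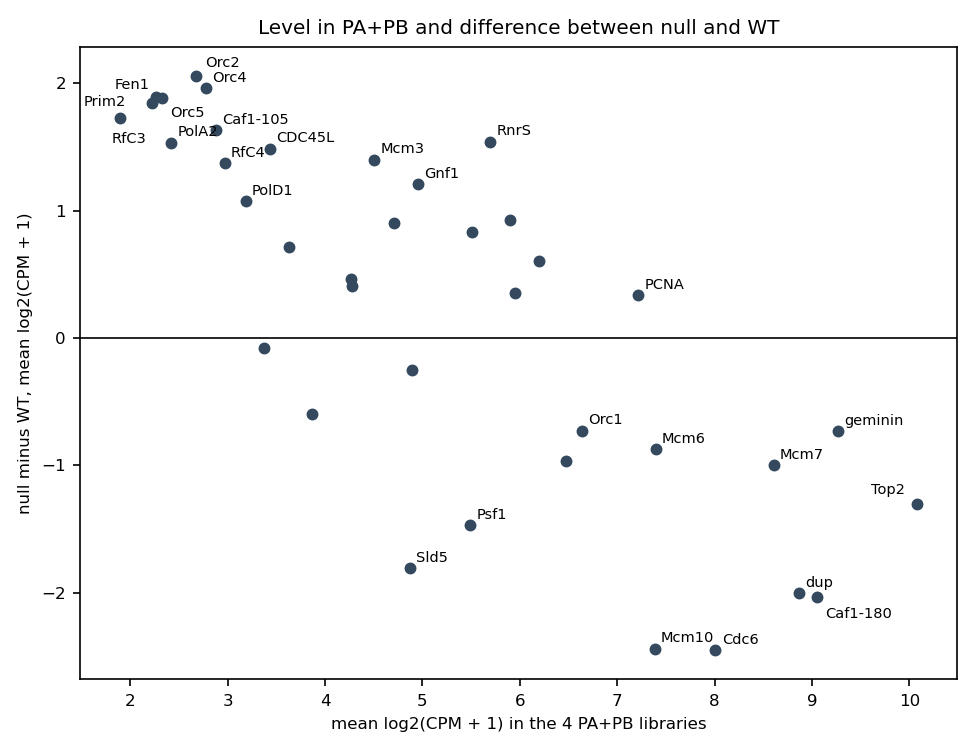
Mean log2(CPM + 1) of each replication gene in the 4 PA+PB libraries (horizontal axis) and its mean in the null libraries minus that in WT (vertical axis, log2 units), 1 point per gene. Genes above a level of 8 on the horizontal axis all lie below 0, and those under 3 all lie above it (r = -0.78, n = 38).

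Levels per kb of exon show what the changes did to the order of the genes. Geminin RNA was the most abundant of the 38 in every genotype, with 260.2 CPM per kb in null embryos, 654 in those with PA, 369 in those with PB, 641 with PA+PB and 437 in WT. In WT it was followed by *Top2* (236 ± 55.0 CPM per kb, SD, n = 4), *Caf1-180* (234 ± 76.0) and *dup* (209 ± 41.6), which do not differ beyond their spread. In the null libraries PCNA (107 ± 35.3), *Top2* (95.9 ± 23.3) and *RnrS* (86.7 ± 17.5) followed geminin, again within their spread, while *Caf1-180* had 55.5 ± 9.15 and *dup* 52.5 ± 14.4. The lowest levels were those of *PolD1* in the null (3.80) and in WT (1.66), and of *PolE1* in PA+PB (2.14). The median over all 39 genes, with *lat* included at 0, was 14.4 CPM per kb in the null, 15.7 in PA+PB and 12.4 in WT.

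Expression of Ada2b-PA in the null background gave 1 call among these genes. *Caf1-180* rose in PA against the null (log2 fold change 2.07, SE 0.44, FDR = 0.019, edgeR), beside 1.72% of all genes called higher, and 0 were called lower, beside 0.413%. It had 1444, 958, 489 and 915 CPM in the PA libraries and 263, 175, 237 and 222 in the null. Without any 1 null library, PA replicate 1 or WT replicate 1 this call was lost, with FDR up to 0.099. In all, 9 genes had every PA library above every null library (*Orc1*, *Cdc6*, *dup*, *geminin*, *Mcm10*, *Psf1*, *RfC38*, *Top2* and *Caf1-180*), beside 9.29% of all genes, and 4 had every PA library below (*Mcm3*, *RnrS*, *Prim2* and *Caf1-105*), beside 28.2%. *Cdc6* had 463, 468, 409 and 408 CPM in PA, with no overlap with the null at 43.4 to 53.3, a fitted change of 3.65 (SE 1.14) and FDR = 0.094. *RfC38* had 63.5, 94.9, 174 and 117 CPM in PA against 9.88 to 13.4 in the null (4.10, SE 1.12, FDR = 0.059).

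Before adjustment 9 genes were higher in PA than in the null at p under 0.05, beside 13.1% of all genes, and 1 lower (*RnrS*), beside 4.79%. DESeq2's Wald test called *Caf1-180*, *Cdc6* and *RfC38* higher, beside 3.93% of all genes, and *RnrS* lower, beside 4.92%. *RnrS* had 29.9, 48.7, 44.5 and 42.7 CPM in PA and 117 to 179 in the null, a difference in the direction of the controls. With PA replicate 2 and PB replicate 1 left out, 8 of the 38 genes passed as higher, beside 7.19% of all genes, and 1 as lower, beside 4.6%, in edgeR's test. The factor weighs heavily here, since the median log2 fold change of all genes in PA minus null was 0.48 with it and -0.62 without it, and that of the replication genes 1.52 and -0.19.

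Against both controls, 0 of the 38 genes were called in PA, beside 0.0734% of all genes called lower and 0.0183% called higher in edgeR's test. Before adjustment, with p under 0.05 in each contrast, 1 was lower (*Mcm6*) and 4 were higher (*RfC4*, *PolA1*, *PolA2* and *Caf1-105*), beside 5.22% and 5.79% of all genes. By DESeq2's Wald test, *Mcm6* was called lower, beside 3.92% of all genes, and *Fen1* and *RfC4* higher, beside 1.94%. *Orc1* and *RfC4* had all PA libraries above all controls, beside 1.16% of all genes, and 0 genes had all below, beside 4.93%. *Orc1* had 227, 184, 152 and 201 CPM in PA, and the highest control library had 147.

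The 4 PB libraries spread widely. Against the null, 0 of the 38 genes were called higher, beside 0.055% of all genes, and 0 lower, beside 0.0825%. Before adjustment 2 were higher at p under 0.05 (*Cdc6* and *Caf1-180*), beside 10.6% of all genes, and 0 lower, beside 2.82%. DESeq2's Wald test called 0, beside 1.77% of all genes called higher and 1.67% called lower. *Caf1-180* was the 1 gene with all PB libraries above all null libraries (284, 406, 692 and 388 CPM in PB, 175 to 263 in the null), beside 3.59% of all genes. *Orc6*, *RnrS* and *RfC3* lay below, beside 14.1%. *Cdc6* had such a spread. Its PB libraries had 0, 147, 506 and 85.9 CPM, which spans everything from no count to more than any control library. *Orc4* had 0 CPM in the first 3 PB libraries and 50.2 in the deep PB replicate 4, which lay within the null range of 31.7 to 57.9.

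Against both controls, 0 of the 38 genes were called in PB, beside 0.578% of all genes called lower and 0.165% called higher. *Mcm6*, *Mcm10*, *Sld5* and *Top2* were lower with p under 0.05 in each contrast before adjustment, beside 8.42% of all genes, and 0 were higher, beside 8.91%. DESeq2's Wald test called 0, beside 4.8% of all genes called lower and 4.63% called higher. *Orc6* and *Sld5* had all PB libraries below all controls, beside 8.62% of all genes, and 0 genes had all above, beside 1.67%.

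The isoforms were also compared directly. In PA minus PB, 0 genes of the 38 were called higher, beside 0.0% of all genes, and 0 lower, beside 0.00917%, while before adjustment 4 were higher in PA at p under 0.05, beside 9.01% of all genes, and 0 lower, beside 12.4%. By DESeq2's Wald test, *PCNA*, *RfC4* and *RnrL* were called higher in PA, beside 3.45% of all genes, and 0 lower, beside 9.22%. *PCNA* (136, 154, 139 and 148 CPM in PA, 8.84, 79.3, 30.0 and 94.2 in PB) and *Orc1* had no overlap between PA and PB, beside 2.06% of all genes with PA above and 1.71% below, and the change of *PCNA* was 1.75 (SE 0.51, FDR = 0.14, edgeR). PB replicate 1 and 3 held most of the zeros, as given above, and their part in this difference was not tested. In WT minus PA+PB, 0 of the 38 were called in either direction (0.0183% of all genes higher and 0.0% lower). Before adjustment 1 gene was lower at p under 0.05 (*RfC38*) and 1 higher (*Caf1-180*), beside 0.954% and 2.67% of all genes. DESeq2's Wald test called 0, beside 0.339% of all genes called higher and 0.138% called lower. *Psf3*, *PCNA* and *RfC38* had all WT libraries below all PA+PB libraries, beside 1.36% of all genes, and *Caf1-180* had all above, beside 3.12%.

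Other replication genes, from a list of 31 of which 28 matched the count table, were examined beside the 39. In the null against both controls, 2 of the 28 were called lower (*Top1* and *dUTPase*), beside 2.7% of all genes, and 0 higher, beside 0.0%. *Top1*, the other main topoisomerase of replication and transcription, had 359 to 467 CPM in the null, 887 to 1891 in PA+PB and 1078 to 1544 in WT (log2 fold changes -1.64 and -1.80, FDR = 0.0062 and 0.010, edgeR). *dUTPase*, which keeps uracil out of DNA, had 103 to 158 CPM in the null, 248 to 938 in PA+PB and 218 to 492 in WT (-1.73 and -2.30, FDR = 0.035 and 0.020). Both had no overlap. In PA against the null, *chif*, *Top1* and *elg1*, the unloader of PCNA, were called higher (1.32, 1.95 and 1.69, FDR = 0.023, 0.014 and 0.037), beside 1.72% of all genes. Of 19 regulators of S phase, among them *E2f1*, *CycE* and *Dref*, 0 were called in the null against both controls, in PA against the null or in PB against the null. Against WT alone 2 of them were called lower in the null, beside 4.54% of all genes. These were *ago* (351 to 552 CPM in the null, 873 to 1288 in WT, log2 fold change -1.30, SE 0.34, FDR = 0.033, edgeR), whose product helps to degrade Cyclin E, and the cyclin gene *CycD* (43.0 to 60.7 CPM in the null, 164 to 328 in WT, -2.19, SE 0.57, FDR = 0.029).

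Mitotic genes were examined as another list of dividing cells. Of 14 such genes, *CycB* and *SMC2* were called lower in the null against both controls, beside 2.7% of all genes, and higher in PA against the null, beside 1.72%. *CycB*, a cyclin of mitosis, had 347 to 513 CPM in the null, 1046 to 3865 in PA+PB and 1693 to 2863 in WT. The 14 genes together summed to 1417 to 2558 CPM in null embryos, 3940.0 to 6041 in those with PA, 630.3 to 4203 in those with PB, 3115 to 9599.7 with PA+PB and 4384 to 7585 in WT. The 38 replication genes summed to 2238 to 3563 CPM in null embryos, 4761 to 5919.9 in those with PA, 1795 to 4061 in those with PB, 3428 to 6088 with PA+PB and 4129 to 6329 in WT. Such sums follow the most abundant genes, such as *Top2* and *Caf1-180*, and do not describe the whole set. As given above, 9 of the 38 lay below all controls in the null and 9 above them. The part of either list in the values of the other was not tested.

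Lists of maternal RNAs and of cell type markers were summed in the same way. Maternal RNAs of the egg (7 genes) summed to 343 to 512 CPM in null embryos, 525 to 892 in those with PA, 338 to 685 in those with PB, 595 to 993 with PA+PB and 813 to 1129 in WT, the null below all controls. *bcd*, the best known of them, was the 1 of the 7 called lower in the null against both controls, beside 2.7% of all genes, with 5.46 to 8.17 CPM against 34.2 to 241 in PA+PB and 168 to 369 in WT. The sum of the neural precursor markers (7 of 8 matched) went the other way, though not every marker did. Fitted changes were positive for 5 and negative for 2 in null minus WT, and positive for 6 and negative for 1 in null minus PA+PB. They summed to 695 to 932 CPM in null embryos, 629 to 1006 in those with PA, 135 to 1447 in those with PB, 33.6 to 622 with PA+PB and 116 to 591 in WT, so that the null lay above all controls, with 0 of 7 called. Glial markers had the same order (167 to 214 CPM in the null, 12.6 to 147 in the controls), and those of neurons, muscle, midgut and hemocytes overlapped the controls. The part of these markers in the levels of the replication genes was not tested.

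**Figure D5:**
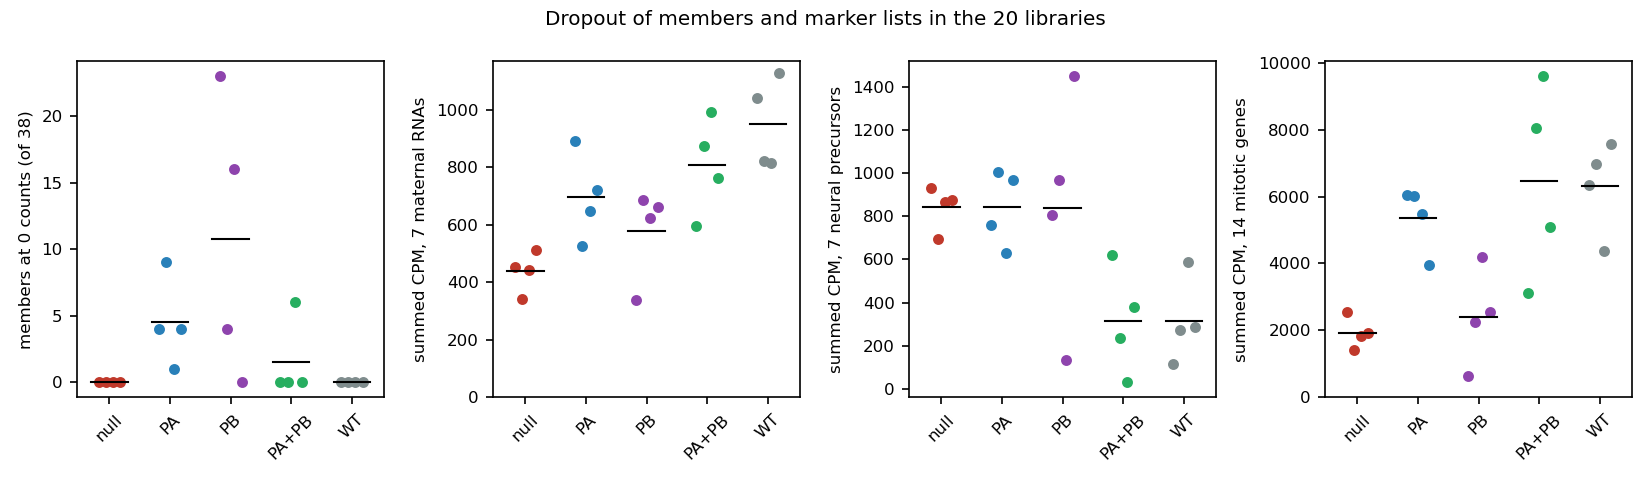
Number of the 38 replication genes with 0 counts and summed CPM of 7 maternal RNAs, 7 neural precursor markers and 14 mitotic genes in each library (points), with the mean of each genotype (line). The null libraries have no gene at 0, lie below all PA+PB and WT libraries for maternal RNAs and mitotic genes, and lie above them for neural precursor markers; PB replicate 1 has 23 genes at 0.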

How the data were processed

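The authors deposited raw counts per gene for 20 libraries, made per the labels with HTSeq 0.11.1 after HISAT2 alignment. Summary rows without a gene held 67.8% to 97.6% of the deposited totals and were left out, as were 138 rRNA genes. The header had 1 field more than the data, so columns were assigned in header order. Whether reads keep their strand is not given in the sources used here, so values of overlapping genes are uncertain.

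In R 4.3.3, edgeR 4.0.16 (TMM, filterByExpr, quasi-likelihood test, 1 factor of unwanted variation from replicates, Benjamini-Hochberg adjustment) tested 10904 genes over all 20 libraries. Calls needed FDR below 0.05 and a change of 0.5 or more on the log2 scale. Floors of 3 counts (0.0848 to 1.81 CPM) cover counting error only. Replicates are pools of embryos, and p-values measure the spread between them. Scripts were tested on simulated data, in which the factor was drawn independently of genotype and only well-counted genes were changed. The simulation thus does not test a factor tied to genotype, or poorly counted genes. Levels per kb use merged exons of Ensembl release 115.

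Members and lists were chosen with earlier results of these data known. Full values are given for called genes, for those with the smallest larger p of both null contrasts until 6 are named per direction, for *Cdc7* and *chif*, and for the gene of each complex with the highest mean count; others are named after their values were seen. *Top1*, *dUTPase*, *elg1*, *CycB*, *SMC2*, *bcd*, *ago* and *CycD* are called genes of the other lists. Alternatives were DESeq2 1.42.0 size factors and Wald test, no filter, 0 or 2 factors, a replicate block, only the groups compared, and libraries left out.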

Additional observations from a re-analysis of the deposited data

Results flagged for a closer look

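Single libraries stood far from the other 3 of their genotype by Dixon's ratio in 3 of 95 groups checked over 19 genes, and chance gives about 1 in 20. *Cdc45* had 55.8 CPM in PA replicate 2, against 9.74 to 14.3 in the other PA libraries. *Cdc7* had 30.3 CPM in WT replicate 3, the library labelled with the wider stage range, against 17.2 to 19.4 in the other WT libraries. *chif* had 895 CPM in WT replicate 4, against 559 to 582 in the others.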

How the results depend on the processing

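The count of replication genes called lower in the null against both controls was 1, beside 2.7% of all genes. It became 0 with DESeq2 size factors (beside 1.25%), with no filter (0.336%) and with the replicate block (0 without the factor, beside 1.46%, and 0 with it, beside 1.99%). It was 4 with 2 factors (4.44%), 4 with DESeq2's Wald test (5.17%), 3 in a fit of only the groups compared (6.74%) and 7 there without the factor (10.8%). It was 6 without PA replicate 2 and PB replicate 1 (7.35%), and 2 without PB replicate 4 as well (2.54%). These last settings and the 7 were chosen after seeing the data. With no factor it stayed 1 (2.38%), but the gene was *Caf1-180*, not *Top2*. Leaving out 1 library gave 0 to 3.

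The count in PA against the null was 1, higher in PA, beside 1.72% of all genes higher and 0.413% lower. It became 0 with size factors (0.165% higher and 0.193% lower) or no filter (0.0593% and 0.152%), 5 with no factor (3.31% and 2.33%), 5 with 2 factors (4.08% and 1.24%) and 4 by the Wald test (3.93% and 4.92%). It was 9 for only the groups compared (8.65% and 2.2%) and 9 there without the factor (8.21% and 13.2%), 9 without the 2 sparse libraries (7.19% and 4.6%), 2 without PB replicate 4 as well (2.26% and 1.17%), and 0 to 5 with 1 library left out.

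The counts of 0 became 3 by the Wald test for PA against both controls, beside 1.94% of all genes higher and 3.92% lower (0 to 0 with 1 library left out). For PB against both controls they became 3 without the sparse libraries (2.06% and 5.44%) and 4 also without PB replicate 4 (2.91% and 6.3%). Leaving out 1 library gave 0 to 2 there, the 2 being *Orc4* and *PolD1* without PB replicate 4 (1.03% and 4.45%), which had 0 counts in the other 3 PB libraries. For PB against the null the same settings gave 1 (0.633% and 0.477%) and 5 (6.24% and 4.53%), and 0 to 1 with 1 library left out. For PA against PB they gave 1 (0.182% and 0.026%) and 2 (1.34% and 0.871%), with 3 by the Wald test (3.45% and 9.22%) and 0 to 2 with 1 library left out. WT against PA+PB stayed at 0 in every setting.

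*Cdc7* turned positive against WT and against PA+PB with no factor (0.48 and 0.48), a replicate block without factor (0.46 and 0.61), only the groups compared (0.25 and 0.19, and 0.47 and 0.48 without factor), without the sparse libraries (0.45 and 0.34) and also without PB replicate 4 (0.18 and 0.12). With 1 library left out, *Orc2* in null minus PA+PB ran between -0.15 and 1.89, and *PolA1* between -0.27 and 0.51. The cause was not tested. Over 40 pairs of libraries with the same replicate number, the correlation of deviations from the genotype mean ran from -0.46 to 0.48, with 7 over 0.1. Depth and zeros enter these correlations, so they cannot show whether replicate numbers pair the libraries. A search of promoters for motifs was not run. Depth limits low genes, as 3 counts are 1.81 CPM in PB replicate 1.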
